A study of Mus musculus with 12 samples.

Results

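NRF2, the transcription factor encoded by Nfe2l2, and 9 of its redox target genes were followed in mouse colon epithelium across genotype and a quercetin diet. The genes were listed by symbol, with earlier results of these data known. Every probe set, a group of probes that reads 1 transcript on the array, was taken if its annotation gave a listed symbol alone. All 10 genes were measured, by 16 probe sets out of 22626 tested, among 12393 genes with a symbol. A gene with several probe sets is described by the one of the highest mean signal, and the others are given beside it.

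The samples were Affymetrix 430A expression arrays. Their RNA came from colon epithelium, scraped off the wall, of male C57BL/6 mice aged 6 to 8 weeks. The 4 groups were wild type on the control diet, wild type with quercetin, cytochrome P450 reductase null (POR-null) on the control diet, and POR-null with quercetin. All mice, controls included, were first adapted for 14 days to a soya-free powdered diet. They then received it for 24 h either plain or with quercetin, a plant flavonol, at 6200 ppm, described as 7 mg for each mouse. Each group had 3 arrays and each array held RNA pooled from 3 mice, so a group stands for 9 mice and the spread between arrays is a spread between pools. The labels name no tissue, promoter or Cre for the deletion, and the deleted gene is not analysed here. The genotype of the arrays was therefore not checked against its signal, and every POR-null comparison rests on the labels.

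NRF2 is held at a low level by KEAP1, an adaptor that feeds it to a ubiquitin ligase for destruction. Electrophiles and oxidants modify KEAP1, after which NRF2 builds up, pairs with small MAF proteins and binds antioxidant response elements in DNA. Its targets make glutathione, reduce thioredoxin, and detoxify quinones, carbonyls and epoxides, and in the gut epithelium they meet plant compounds and bacterial products from the lumen. Much of this control acts on the protein, so the mRNA of Nfe2l2 measured here is not the activity of NRF2.

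The promoters of the members show which start sites carry such an element close by. RefSeq promoters of GRCm38.p6, 250 bases before to 50 bases after a start, were held for 8 of the 10 members, with 3 for Txnrd1. Gclc and Hmox1 had no entry. The core element TGACNNNGC, searched on both strands, was in 12.4% of all 32851 promoters of that table. The longer form TGANTCAGC, to which NRF2 with a small MAF protein can bind, was in 1.19%. The AP-1 element TGANTCA, whose letters the longer form contains, was in 7.81%. The stretches below are those in which a core or longer element lay before the start, written 5′ to 3′ along the gene, with the element in capitals.
Srxn1, chr2:152105459-152105507, plus strand, longer form 45 bases before the start: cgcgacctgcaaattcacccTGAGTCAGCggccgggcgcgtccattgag
Gclm, chr3:122245403-122245451, plus strand, core on the opposite strand 134 bases before the start: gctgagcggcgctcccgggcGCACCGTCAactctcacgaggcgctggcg
Txnrd1, chr10:82859094-82859142, plus strand, core on the opposite strand 92 bases before the second of its 3 starts: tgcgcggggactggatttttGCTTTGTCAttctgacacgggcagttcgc
Nfe2l2, chr2:75704875-75704913, minus strand, core 240 bases before the start: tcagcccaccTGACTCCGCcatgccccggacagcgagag
The capitals in Srxn1 also hold the AP-1 letters, and that promoter has another AP-1 match 102 bases before the start and a core match after it. In the windows of Nqo1, Cbr3, Ephx1 and Slc7a11 none of the 3 motifs was found. A match is a run of letters and not a measured site, and known elements of these genes can lie outside such a short window.

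The arrays were first set against markers of the labelled tissue. The mean log2 signal of 9 absorptive colonocyte genes lay between 11.94 and 12.34 on the 12 arrays, and all 9 were above the median of every array. Markers of other cells varied more, and wild type control arrays 2 and 3 stood apart. For 6 genes of MHC class II antigen presentation the mean log2 signal on wild type control arrays 1, 2 and 3 was 8.16, 6.75 and 6.52. It ran from 7.81 to 9.13 with quercetin in wild type, from 7.85 to 8.80 in the POR-null control group and from 7.54 to 7.88 with quercetin in POR-null. All 6 of these genes were lower on arrays 2 and 3 than on the other 10 arrays. So were 4 of 6 B and plasma cell genes, 6 of 10 fibroblast and matrix genes and 5 of 12 smooth muscle genes. Other lists had fewer, with 2 of 8 endothelial genes, 1 of 10 macrophage genes and 1 of 7 T and NK cell genes. The share of all probe sets in this position was not computed, so these counts are a description. Epithelial markers differed there too. Of 7 goblet cell genes 4 were lower on both arrays than on the other 10, while 1, Spdef, was higher. Of 9 colonocyte genes 2, Car1 and Guca2a, were higher. Smooth muscle genes had a mean of 5.98 to 6.18 on all 3 wild type control arrays, 6.32 to 9.50 with quercetin in wild type, 6.24 to 7.76 in the POR-null control group and 7.31 to 7.71 with quercetin in POR-null. Pancreatic acinar genes reached 9.31 on wild type control array 1 and 10.28 on POR-null quercetin array 2, against 6.39 to 7.84 elsewhere. In a principal component analysis, the first component held 23.7% of the variance and placed wild type control arrays 2 and 3 at 24.7 and 24.9, with array 1 at -3.1 and the other 9 between -24.2 and 9.9. In such tissue RNA a smaller number of cells of a type and less RNA in each cell cannot be told apart.

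**Figure D1:**
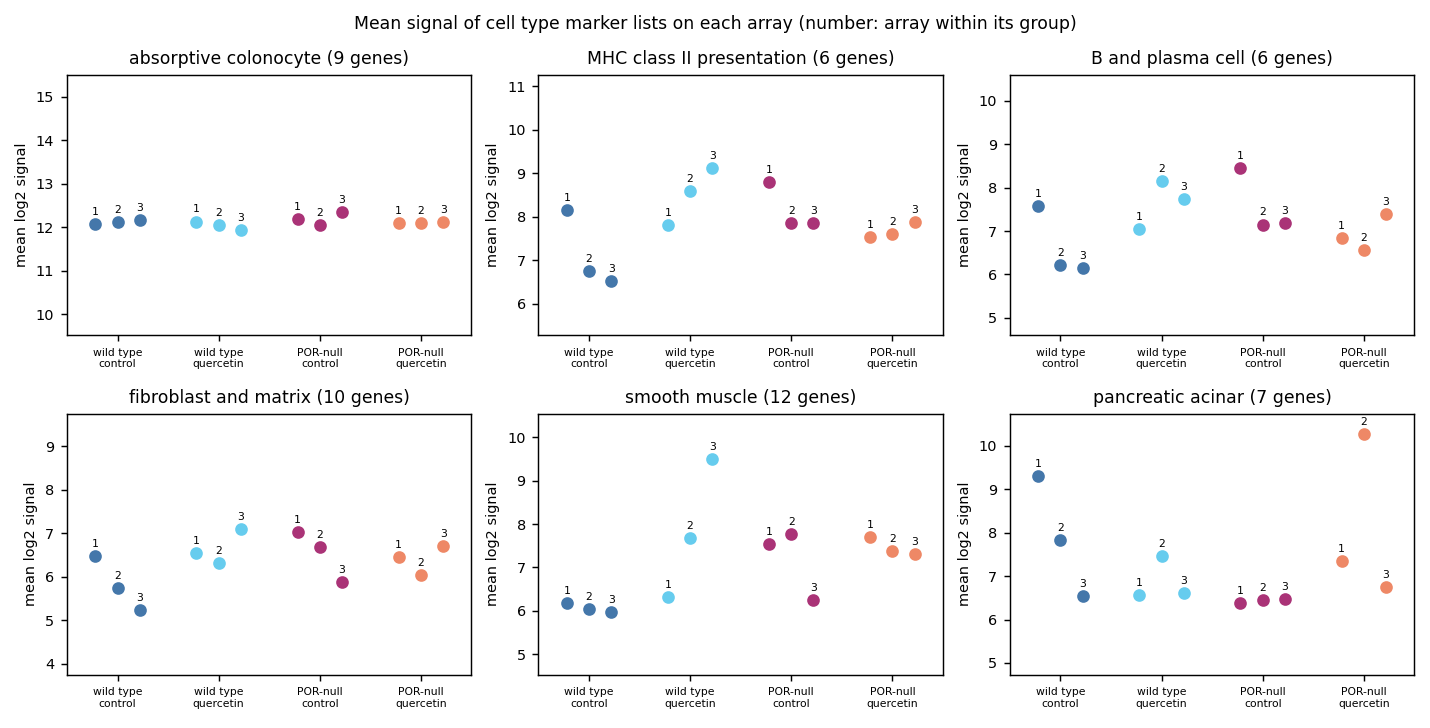
Mean log2 signal of 6 marker gene lists on each array, by group, with the number of the array within its group. Colonocyte genes are level near 12, while on wild type control arrays 2 and 3 the MHC class II, B cell and fibroblast genes lie below those of the other 10 arrays.

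The main pattern among the members was a high signal on those same 2 arrays. Nfe2l2, Txnrd1, Nqo1 and Cbr3 were higher on wild type control arrays 2 and 3 than on each of the other 10, which is 4 of 10 members, against 929 of 22626 probe sets, 4.11%. Ephx1 went the other way and was lower on all 3 wild type control arrays than on the other 9, a pattern of 176 probe sets, 0.778%. These positions were looked up after the 2 arrays had been seen to stand apart, so the counts are a description. The part of the marker differences in them was not tested.

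**Figure D2:**
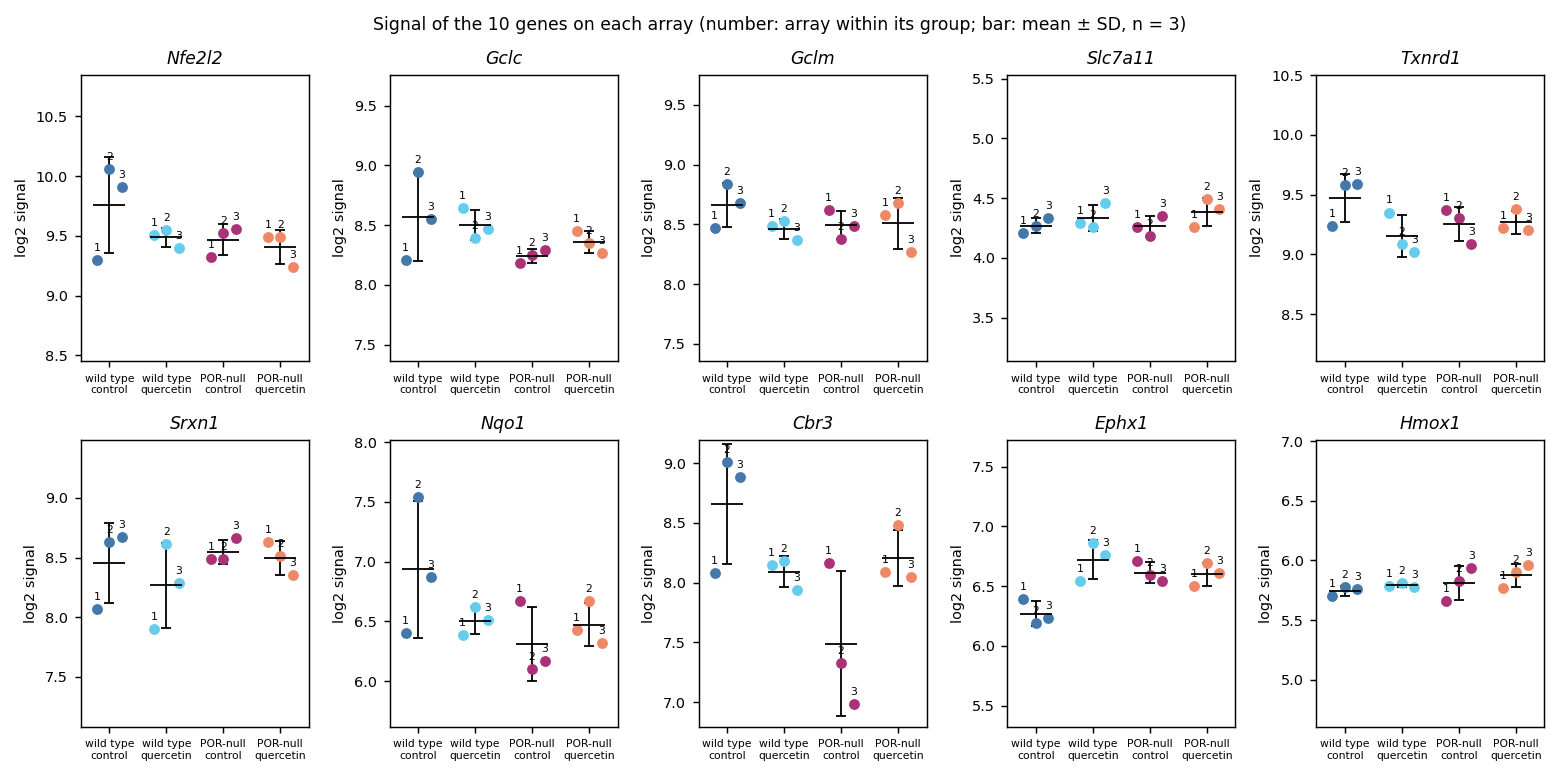
Log2 signal of the 10 genes on each of the 12 arrays, by group, with the number of the array within its group and the group mean ± SD (n = 3). Nfe2l2, Txnrd1, Nqo1 and Cbr3 have their top values on wild type control arrays 2 and 3, and Ephx1 has its lowest values in the wild type control group.

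Across the comparisons, 0 of 10 members passed an adjusted p of 0.05 (limma, Benjamini-Hochberg over all probe sets). The share of all probe sets that passed was 0% as well, 0 of 22626, in each of the 7 comparisons. Those are quercetin minus control in wild type and in POR-null, POR-null minus wild type on the control and on the quercetin diet, the interaction, and both averages. Unadjusted p values are given below as a description of the members, beside the share of all probe sets under 0.05. For quercetin in wild type 2 of 10 members had an unadjusted p under 0.05, against 5.15% of all probe sets. For quercetin in POR-null it was 1 of 10 against 2.82%. For POR-null minus wild type it was 4 of 10 against 6.79% on the control diet and 0 of 10 against 2.39% on the quercetin diet. The interaction, the quercetin effect in POR-null minus that in wild type, had 2 of 10 against 4.74%. The average effect of quercetin over genotypes had 1 of 10 against 3.25%, and the average effect of genotype over diets had 2 of 10 against 4.18%. The wild type control arrays enter 5 of these 7 comparisons, so those counts are not independent of each other.

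The arrays of 2 groups separated in at most 1 of 10 members a comparison, near the share of all probe sets. Without overlap between the arrays of 2 groups there was 1 of 10 members for quercetin in wild type, against 9.31% of all probe sets, and 0 of 10 for quercetin in POR-null, against 6.75%. For genotype it was 1 of 10 on the control diet, against 9.67%, and 0 of 10 on the quercetin diet, against 6.82%. These counts are for the main probe sets, and both cases were Ephx1. By direction, 7 of 10 members were lower with quercetin in wild type with a median log2 difference of -0.20, and 7 of 10 were lower in POR-null than in wild type on the control diet with a median of -0.19. Over all probe sets 49.0% and 52.9% were lower in these comparisons, with medians of 0.00 and -0.01. With quercetin in POR-null 7 of 10 were higher with a median of 0.04, and between genotypes on the quercetin diet 6 of 10 were higher with a median of 0.05. In the interaction 9 of 10 were higher with a median of 0.20, against 51.3% and 0.01 over all probe sets. Without wild type control arrays 2 and 3 the members' medians became 0.12 for quercetin in wild type, 0.04 for genotype on the control diet and -0.02 for the interaction. Without wild type control array 1 instead they were -0.34, -0.30 and 0.35.

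**Figure D3:**
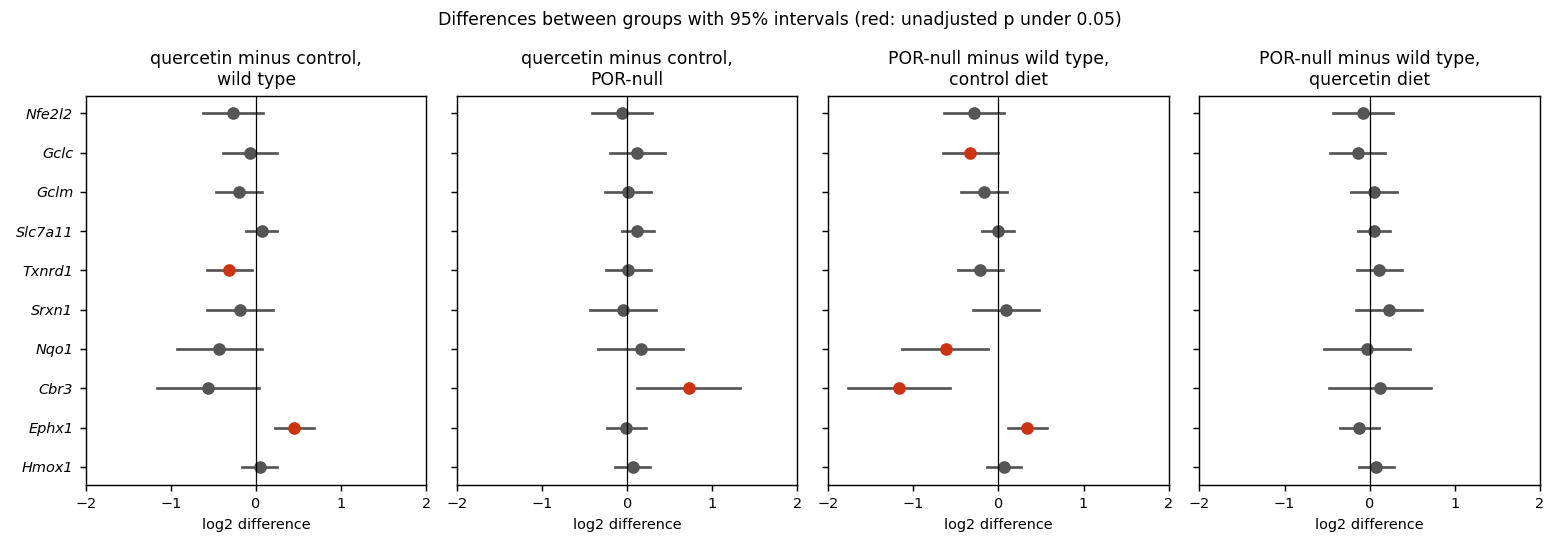
Log2 differences of the 10 genes in 4 comparisons with 95% intervals from the moderated fit, in red where the unadjusted p was under 0.05. In both panels that do not use the wild type control group, 9 of 10 and 10 of 10 intervals include 0, the exception being Cbr3 with quercetin in POR-null.

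The regulator itself, Nfe2l2, had no difference that passed the test. Log2 signals were 9.30, 10.06 and 9.91 on the wild type control arrays and 9.51, 9.55 and 9.40 with quercetin. In POR-null they were 9.32, 9.52 and 9.56 on the control diet and 9.49, 9.49 and 9.24 with quercetin. The 2 high control arrays set the wild type control mean of 9.76 ± 0.40 (SD, n = 3) above the 9.49 ± 0.08, 9.47 ± 0.13 and 9.41 ± 0.14 of the other groups, which lie close together. With quercetin in wild type the log2 difference was -0.27 (SE 0.16, 95% interval -0.62 to 0.08, adjusted p = 0.957, limma). In POR-null it was -0.06 with an interval of -0.41 to 0.29. With any 1 array left out the difference in wild type stayed between -0.50 and -0.12, and without control arrays 2 and 3 together it was 0.19.

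Glutathione synthesis starts with glutamate-cysteine ligase, of which Gclc is the catalytic subunit and Gclm the modifier that raises its activity. Gclc was lower in POR-null than in wild type on the control diet, short of the threshold after adjustment. The wild type control arrays had a log2 signal of 8.21, 8.94 and 8.55, and 8.64, 8.39 and 8.47 with quercetin, against 8.18, 8.25 and 8.29 in POR-null on the control diet and 8.45, 8.35 and 8.27 with quercetin. Wild type control array 1 fell inside the POR-null range, so the groups overlapped. The log2 difference between genotypes on the control diet was -0.33 (SE 0.15, unadjusted p = 0.0451, adjusted p = 0.734, limma), a ratio of 0.797. It was -0.50 without wild type control array 1 and 0.03 without arrays 2 and 3. Averaged over diets it was -0.24 (SE 0.10, adjusted p = 0.997), with -0.32 without array 1 and -0.06 without arrays 2 and 3. Its second probe set also had a lower mean in POR-null on the control diet, by a log2 difference of -0.44 (SE 0.18) and without overlap between the groups. Quercetin gave Gclc log2 differences of -0.07 in wild type and 0.12 in POR-null, with intervals of -0.39 to 0.25 and -0.20 to 0.44. The wild type value was 0.12 without control array 2.

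Gclm varied less. The log2 signal was 8.47, 8.84 and 8.68 in the wild type control group and 8.49, 8.53 and 8.37 with quercetin, and 8.62, 8.38 and 8.49 in the POR-null control group and 8.58, 8.68 and 8.27 with quercetin. All 4 groups overlapped. The log2 difference with quercetin was -0.20 (SE 0.12) in wild type and 0.01 (SE 0.12) in POR-null, and between genotypes on the control diet it was -0.17 (SE 0.12).

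Slc7a11, the light chain of the cystine and glutamate exchanger that brings in cystine for glutathione, had a low signal on every array. Its log2 signal ran from 4.18 to 4.49, below the lower quartile of each of the 12 arrays, which lay between 4.66 and 4.78. The group means were 4.27 ± 0.06, 4.34 ± 0.11, 4.26 ± 0.09 and 4.39 ± 0.12 (SD, n = 3) for wild type control, wild type quercetin, POR-null control and POR-null quercetin. At so low a signal a small change in mRNA may not be visible. The log2 differences with quercetin were 0.07 and 0.12, both with an SE of 0.09.

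Txnrd1, thioredoxin reductase of the cytosol, reduces thioredoxin with NADPH. It was lower with quercetin in wild type, short of the threshold after adjustment. On the arrays its log2 signal was 9.24, 9.58 and 9.59 in the wild type control group and 9.35, 9.09 and 9.02 with quercetin. POR-null arrays gave 9.37, 9.30 and 9.09 on the control diet and 9.22, 9.38 and 9.20 with quercetin. Control array 1 lay below quercetin array 1, so the groups overlapped in wild type too. The log2 difference with quercetin in wild type was -0.32 (SE 0.12, unadjusted p = 0.0238, adjusted p = 0.954, limma), a ratio of 0.803. It was -0.43 without wild type control array 1 and -0.09 without arrays 2 and 3. In POR-null the difference was 0.01 with an interval of -0.25 to 0.28, and the interaction was 0.33 (SE 0.17, adjusted p = 0.998).

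All 3 probe sets of Txnrd1 were highest on wild type control arrays 2 and 3. In the second, 1424486_a_at, the log2 signal was 6.96, 7.20 and 7.12 in the wild type control group and 6.87, 6.74 and 6.92 with quercetin. POR-null arrays on the control diet gave 6.63, 6.78 and 6.76. Here control array 1 also lay above all arrays of both other groups, so neither overlapped with wild type control. The log2 difference was -0.25 (SE 0.11) with quercetin and -0.37 (SE 0.11, unadjusted p = 0.00556, adjusted p = 0.710, limma) between genotypes. The probe set chosen for its signal gave -0.22 (SE 0.12) for the latter, the same direction. The third, 1424487_x_at, lay below the lower quartile of all 12 arrays, and its log2 difference between genotypes on the control diet was -0.19 (SE 0.08).

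Srxn1, sulfiredoxin, repairs overoxidised peroxiredoxins. The gene with the longer element in its promoter had no difference that passed the test in the probe set of the highest signal. Here the log2 signal was 8.07, 8.63 and 8.67 in the wild type control group and 7.90, 8.61 and 8.29 with quercetin, and 8.49, 8.49 and 8.66 in the POR-null control group and 8.63, 8.51 and 8.35 with quercetin. Array 1 was the lowest in both wild type groups, and the groups overlapped throughout. The log2 differences with quercetin were -0.19 (SE 0.18) in wild type and -0.05 (SE 0.18) in POR-null. Of its 3 other probe sets, 1425351_at gave -0.40 (SE 0.14, unadjusted p = 0.0145, adjusted p = 0.952, limma) in wild type, while the other two gave -0.12 and -0.10. The probe sets of this gene had the same direction there and differed in size. Between genotypes on the quercetin diet 1425351_at had a log2 difference of 0.28 (SE 0.14), without overlap between the groups, as had 6.82% of all probe sets. The probe set of the highest signal gave 0.23 there, 1451680_at 0.24 and 1419942_at 0.01, each with overlap.

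Nqo1, the quinone reductase that is a common readout of NRF2 activity, was lower in POR-null than in wild type on the control diet, short of the threshold after adjustment. Its log2 signal was 6.40, 7.54 and 6.87 in the wild type control group and 6.39, 6.62 and 6.51 with quercetin. In POR-null it was 6.67, 6.10 and 6.17 on the control diet and 6.43, 6.67 and 6.32 with quercetin. Wild type control array 2 was the highest of all, and array 1 lay among the other groups. The log2 difference between genotypes on the control diet was -0.62 (SE 0.23, unadjusted p = 0.0190, adjusted p = 0.718, limma), a ratio of 0.649, and it was -0.09 without wild type control arrays 2 and 3. With quercetin it was -0.43 (SE 0.23) in wild type and 0.16 (SE 0.23) in POR-null, with intervals of -0.93 to 0.07 and -0.34 to 0.66. The wild type value was -0.70 without control array 1, -0.13 without array 2 and 0.11 without arrays 2 and 3. The genotype difference on the control diet was -0.89 without wild type control array 1 and -0.32 without array 2. On the quercetin diet the genotypes had a log2 difference of -0.03 (95% interval -0.54 to 0.47).

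Cbr3, a carbonyl reductase that uses NADPH, spread the most, over a log2 range of 2.03 across the arrays against 0.30 to 1.44 for the other members in their main probe sets. Its log2 signal was 8.08, 9.01 and 8.88 in the wild type control group and 8.15, 8.18 and 7.94 with quercetin. The POR-null arrays had 8.16, 7.33 and 6.98 on the control diet and 8.09, 8.48 and 8.05 with quercetin. Array 1 of each control group lay at 8.08 and 8.16, among both quercetin groups, while arrays 2 and 3 were high in wild type and low in POR-null. The group means were 8.66 ± 0.50, 8.09 ± 0.13, 7.49 ± 0.61 and 8.21 ± 0.24 (SD, n = 3) in that order.

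The log2 difference of Cbr3 between genotypes on the control diet was -1.17 (SE 0.28, 95% interval -1.77 to -0.57, unadjusted p = 0.00104, adjusted p = 0.710, limma), a ratio of 0.445. The arrays of the 2 groups still overlapped, through array 1 of each. Quercetin gave a lower mean in wild type, by a log2 difference of -0.57 (SE 0.28, adjusted p = 0.957), and a higher one in POR-null, by 0.72 (SE 0.28, unadjusted p = 0.0227, adjusted p = 1). The interaction was 1.28 (SE 0.39, unadjusted p = 0.0061, adjusted p = 0.998). Averaged over diets, the genotypes had a log2 difference of -0.52 (SE 0.20, unadjusted p = 0.0191, adjusted p = 0.997). Without wild type control array 1 the genotype difference on the control diet was -1.46, the interaction 1.57 and the wild type quercetin difference -0.86. Without wild type control arrays 2 and 3 the same differences were -0.59, 0.71 and 0.01. The difference with quercetin in POR-null, which does not use those arrays, was 0.46 without POR-null control array 3. With array weights from the fit, the genotype difference on the control diet was -1.39 with an adjusted p of 0.0261 (limma). This was the only member value under any alternative with an adjusted p under 0.05. That fit called 399 of 22626 probe sets in this comparison. The weights of arrays 1, 2 and 3 were 0.53, 1.14 and 2.49 in the wild type control group. In the POR-null control group they were 0.61, 2.72 and 0.45.

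Ephx1, microsomal epoxide hydrolase, turns epoxides into diols and was the only member whose arrays separated in the main probe set. Its log2 signal was 6.39, 6.19 and 6.23 in the wild type control group and 6.54, 6.86 and 6.76 with quercetin. POR-null arrays had 6.71, 6.59 and 6.54 on the control diet and 6.50, 6.69 and 6.61 with quercetin. Every wild type control array was below every other array, and the other 3 groups overlapped. Quercetin in wild type gave a log2 difference of 0.45 (SE 0.11, 95% interval 0.22 to 0.68, unadjusted p = 0.000973, adjusted p = 0.910, limma), a ratio of 1.37, higher on 3 of 3 arrays. In POR-null the difference was -0.01 (SE 0.11) with an interval of -0.24 to 0.22.

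Between genotypes Ephx1 had a log2 difference of 0.34 (SE 0.11, unadjusted p = 0.00653, adjusted p = 0.710, limma) on the control diet and of -0.12 (SE 0.11) on the quercetin diet. The interaction was -0.46 (SE 0.15, unadjusted p = 0.00868, adjusted p = 0.998). Averaged over genotypes the quercetin difference was 0.22 (SE 0.07, unadjusted p = 0.0122, adjusted p = 0.998). Without wild type control arrays 2 and 3 Ephx1 kept its direction, but its differences were smaller. They were 0.33 for quercetin in wild type, 0.22 for genotype on the control diet and -0.34 for the interaction. That fit leaves 1 wild type control array, so direction alone is weak evidence. The smooth muscle markers were also low on all 3 wild type control arrays, and their part in the Ephx1 result was not tested.

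Hmox1, haem oxygenase, opens the haem ring and had log2 differences close to 0. Single arrays had a log2 signal of 5.70, 5.78 and 5.76 in the wild type control group and 5.79, 5.81 and 5.78 with quercetin, and 5.66, 5.83 and 5.94 in the POR-null control group and 5.77, 5.90 and 5.96 with quercetin. The groups overlapped in all 4 comparisons. The log2 differences ran from 0.05 to 0.08 with an SE of 0.09, and the interval for quercetin was -0.16 to 0.25 in wild type and -0.14 to 0.27 in POR-null.

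Over the 12 arrays the signal of Nfe2l2 was correlated with that of several targets. In size r was smaller for each of them without wild type control arrays 2 and 3. For Nqo1, Txnrd1, Ephx1 and Cbr3 its sign turned. In all 9 relations were computed, with permutation p values that are not adjusted. For Gclc, r was 0.80 (p = 0.00326) and rho 0.60 (p = 0.0434), and r was 0.45 without those arrays, the 2 farthest from the median of Nfe2l2. For Gclm, r was 0.74 (p = 0.0058), rho 0.55 (p = 0.0652) and r without them 0.36. Nqo1 had r = 0.73 (permutation p = 0.0115), rho = 0.29 (p = 0.363) and r = -0.16 without them. Txnrd1 had r = 0.65 (permutation p = 0.0192), rho = 0.32 (p = 0.304) and r = -0.11 without them. Ephx1 had r = -0.66 (permutation p = 0.0186), rho = -0.39 (p = 0.204) and r = 0.17 without them. For Nqo1, Txnrd1 and Ephx1 the relation did not hold over the remaining 10 arrays, where its sign turned. No p was computed over those 10 arrays, so the smaller r of Gclc and Gclm there was not tested.

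Srxn1 had r = 0.49 (p = 0.0948), rho = 0.70 (p = 0.0139) and r = 0.36 without the 2 arrays. After quantile normalization rho was 0.66 for Srxn1 and 0.78 for Gclc, so the order of these targets depended on the scaling. Cbr3 had r = 0.52 (p = 0.0819), rho = 0.36 (p = 0.241) and r = -0.34 without them, so its sign turned as well. Hmox1 and Slc7a11 had values near 0, with r = -0.07 (p = 0.843) and r = -0.13 (p = 0.713), rho = 0.09 (p = 0.777) and rho = -0.04 (p = 0.899), and r = 0.23 and -0.11 without the 2 arrays. After the group means were taken out, r was 0.85 for Gclc, 0.69 for Srxn1, 0.67 for Gclm, 0.62 for Nqo1, 0.54 for Txnrd1, 0.41 for Cbr3, 0.31 for Hmox1, 0.11 for Slc7a11 and -0.51 for Ephx1. The same 2 arrays still differ from array 1 of their group in those deviations. The arrays also share the marker differences described above, whose part in the relations was not tested.

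**Figure D4:**
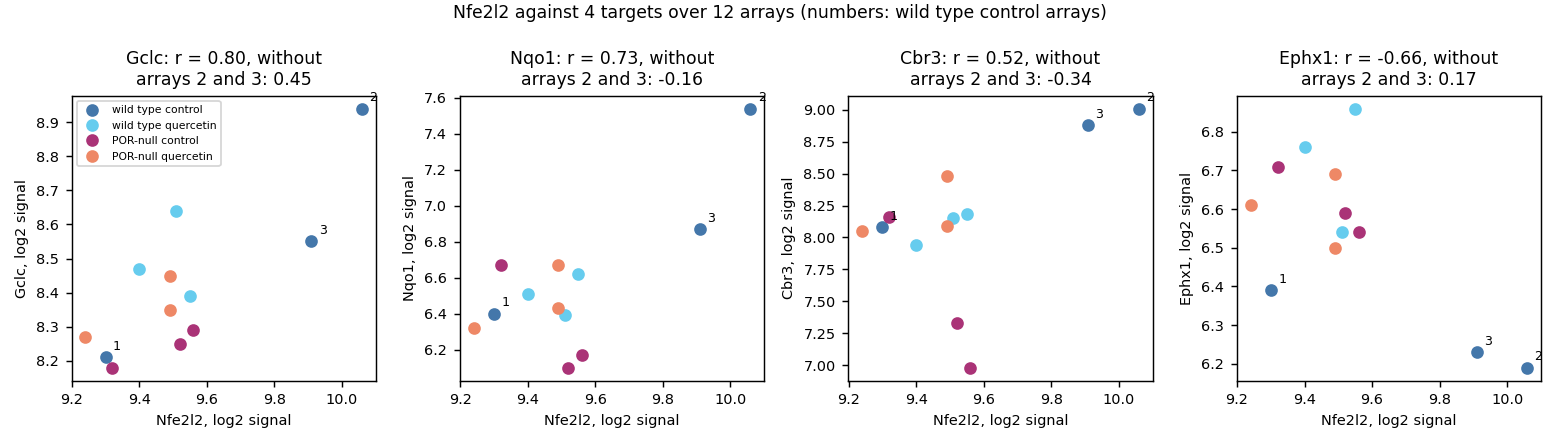
Log2 signal of Gclc, Nqo1, Cbr3 and Ephx1 against that of Nfe2l2 on the 12 arrays, coloured by group, with the wild type control arrays numbered. Arrays 2 and 3 lie far to the right in every panel, and without them r goes from 0.80 to 0.45 for Gclc and from 0.73 to -0.16 for Nqo1.

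The genes whose pattern over the 12 arrays was most like that of Nfe2l2 were other than the listed targets. Among 7297 genes with a mean above the median, the 5 highest r were those of Retsat, a retinol saturase, at 0.925, Ethe1, a mitochondrial persulfide dioxygenase, at 0.921, Galnt4, a glycosyltransferase that starts O-linked sugar chains, at 0.912, Guca2a, the gut peptide guanylin, at 0.910, and Ghitm, an inner mitochondrial membrane protein, at 0.906. All 5 were higher on wild type control arrays 2 and 3 than on the other 10 arrays. Without these arrays their r with Nfe2l2 was 0.56 to 0.76. Of the targets, Gclc ranked highest in this order, at 100 of 7297, followed by Gclm at 194 and Nqo1 at 208.

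Among the other genes of the pathway 0 passed an adjusted p of 0.05, as among all probe sets. Over all probe sets the share with an unadjusted p under 0.05 was 5.15% for quercetin in wild type and 2.82% in POR-null. Between genotypes it was 6.79% on the control diet and 2.39% on the quercetin diet. For the interaction it was 4.74% and for the quercetin average 3.25%. Differences of the listed genes without wild type control arrays 2 and 3 are not given here. Of 15 genes that control NRF2 or pair with it, 14 were measured, and 0 passed an adjusted p of 0.05 in any of the 7 comparisons. With quercetin, 1 of 14 had an unadjusted p under 0.05 in wild type, Mafg, a small MAF partner, with a log2 difference of -0.29 (SE 0.12). In POR-null it was also 1 of 14, Nfe2l1, a relative of NRF2, at -0.28 (SE 0.11). Averaged over genotypes, 12 of 14 were lower with quercetin and 3 of 14 had an unadjusted p under 0.05, namely Nfe2l1 at -0.24 (SE 0.08), Mafg at -0.25 (SE 0.08) and Maff, another small MAF, at -0.22 (SE 0.10), each with an adjusted p of 0.998 (limma). Over all probe sets 46.9% were lower in that average, and the median of the list was -0.07 against 0.00. Between genotypes on the control diet it was 1 of 14, Gsk3b, a kinase that marks NRF2 for destruction, at -0.26 (SE 0.11), and on the quercetin diet 0 of 14. Keap1 itself was among the 4 genes of the smallest unadjusted p only in the interaction, where it had 0.21 (SE 0.20) and 0 of 14 were under 0.05.

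Among 30 other NRF2 targets 22 were measured, with 0 passing an adjusted p of 0.05 in each of the 7 comparisons. As with the members, more were lower than higher with quercetin in wild type, 16 of 22 with a median of -0.08, and in POR-null on the control diet, 17 of 22 with a median of -0.08. Abcc2, an efflux pump for glutathione and glucuronide conjugates, was the only one of the 22 with an unadjusted p under 0.05 for quercetin, at 0.43 (SE 0.19) in wild type and 0.45 (SE 0.19) in POR-null. Its average was 0.44 (SE 0.14, unadjusted p = 0.00692, adjusted p = 0.998, limma), at a low signal, with group means of 3.79 to 4.30. Between genotypes on the control diet Gsr, glutathione reductase, had a log2 difference of -0.32 (SE 0.14) without overlap between groups. Ugdh, Fth1 and Akr1b8, 3 of the 22, were higher on wild type control arrays 2 and 3 than on the other 10, against 4.11% of all probe sets.

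Of 25 other redox enzymes 22 were measured, and again 0 passed an adjusted p of 0.05 in each of the 7 comparisons. Gpx3, a secreted glutathione peroxidase, had a log2 difference of 0.97 (SE 0.32, unadjusted p = 0.00951, adjusted p = 0.952, limma) with quercetin in wild type, without overlap between groups, and was the only one of the 22 under 0.05 there. On the control diet 3 of 22 had an unadjusted p under 0.05 between genotypes, against 6.79% of all probe sets. These were Ephx2, the soluble epoxide hydrolase, at -0.57 (SE 0.22), Sesn2, a sestrin, at -0.27 (SE 0.11), and Gpx3 at 0.73 (SE 0.32). Ephx2 thus had the sign opposite to that of Ephx1, at 0.34, in the same comparison. For quercetin in POR-null and for genotype on the quercetin diet it was 0 of 22. In the interaction it was 2 of 22, Gpx3 at -1.13 (SE 0.45) and Ephx2 at 0.71 (SE 0.31), both with an adjusted p of 0.998 (limma). Sod1, Prdx3, Glrx and Sesn2, 4 of the 22, were higher on wild type control arrays 2 and 3 than on the other 10, again against 4.11%.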

How the data were processed

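Deposited values of 12 Affymetrix 430A arrays were used as they stood. MAS5 and RMA are named, without version or role, in the submitters' processing notes. The deposited values were taken as log2 signal: they run from 2.70 to 14.09, above 11.1, the natural logarithm of a 16-bit maximum. Genes were named from the array annotation, and 64 control probe sets of 22690 were left out.

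The comparison of groups used limma (version 3.58.1, R 4.3.3; lmFit, eBayes with trend) in 1 fit of 4 group means over 12 arrays, two-sided, with Benjamini-Hochberg adjustment over 22626 probe sets and a threshold of 0.05. Correlations used 100000 permutations. Tested on simulated data for quercetin in wild type over 22626 probe sets, the fit called 42% of log2 changes of 0.5 and 94% of those of 1. The simulated noise was normal and independent between arrays, and log2 changes of 2 and 3 were planted as well. In the real data wild type control arrays 2 and 3 stood apart together, so these shares may not hold for them.

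Members, gene lists and rules were chosen with earlier results of these data known. All 10 members are named, with up to 4 genes of the smallest unadjusted p for each pathway list and comparison, and the 5 genes most like Nfe2l2. Motifs were chosen after the promoters had been seen. Alternatives were the moderation, the arrays fitted, quantile normalization, a signal filter, array weights, a replicate block, the mean of probe sets and leaving out arrays. Leaving out wild type control arrays 2 and 3 together was added after values were seen.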

Additional observations from a re-analysis of the deposited data

Results flagged for a closer look

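For Cbr3 the quercetin effect in POR-null minus that in wild type was a log2 interaction of 1.28. It had an unadjusted p of 0.0061 and an adjusted p of 0.998 over all probe sets (limma), short of the threshold. The mean was lower with quercetin in wild type, by a log2 difference of -0.57, and higher in POR-null, by 0.72. The interaction ranged from 0.71 to 1.62 over its alternatives, lowest without wild type control arrays 2 and 3.

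For Ephx1 the same test gave -0.46, with an unadjusted p of 0.00868 and an adjusted p of 0.998 (limma). The log2 difference with quercetin was 0.45 in wild type and -0.01 in POR-null. This interaction ranged from -0.55 to -0.34 over its alternatives. Both genes stand here because their unadjusted p was under 0.05, as it was for 4.74% of all probe sets.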

How the results depend on the processing

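The 10 members gave 70 differences, recomputed as 1356 values under the alternatives, and 54 of these changed sign. Many alternatives leave a difference unchanged by design, such as leaving out an array of a group outside the comparison. The counts of values in this paragraph therefore do not measure stability. A change of sign counts here as reversed only where the unadjusted p was under 0.05, and that was the case for 1 value, Gclc between genotypes on the control diet, at 0.03 without wild type control arrays 2 and 3. Of 12 differences with an unadjusted p under 0.05, 188 of 235 values stayed under it. Leaving out wild type control arrays 2 and 3 moved the median of the members to 0.12 for quercetin in wild type, to 0.04 for genotype on the control diet and to -0.02 for the interaction. It leaves 1 wild type control array, which is assumed to vary like the other groups.

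Array weights called 2 probe sets for quercetin in wild type and 399 for genotype on the control diet, 1 of them a member, Cbr3. For genotype on the quercetin diet, a fit of only the groups compared called 1 probe set, as did the replicate block. The labels do not say whether samples of the same number were paired. Deviations from the group means correlated from -0.192 to 0.26 over 18 pairs of the same number, with a median of 0.041 and 6 over 0.1. Over 36 pairs of other numbers they correlated from -0.267 to 0.209, with a median of -0.021 and 9 over 0.1. Whether samples of the same number shared a day or batch was not tested. With the block 0 of 70 member differences were called and 10 of the 12 stayed under an unadjusted p of 0.05.

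With each array left out in turn, the probe sets called ranged from 0 to 3 for quercetin in wild type (3 without quercetin array 1), 0 to 1 in POR-null, 0 to 41 for genotype on the control diet (41 without wild type control array 1), 0 to 1 on the quercetin diet, 0 to 1 for the interaction, 0 to 1 for the quercetin average and 0 to 2 for the genotype average. No member was called in any of these fits. The median of the members ranged from -0.34 to -0.11 for quercetin in wild type (-0.20 with all arrays), from -0.30 to -0.11 for genotype on the control diet (-0.19) and from 0.06 to 0.35 for the interaction (0.20). For the 5 targets whose r with Nfe2l2 had an unadjusted permutation p under 0.05, it stayed under it after quantile normalization and with the mean of probe sets. The cause of these shifts was not tested. The filter on low signal left 8 of 10 members, without Hmox1 and Slc7a11.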
